A study of Mus musculus with 8 samples.

Results

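The genes described here encode the TGF-beta and activin ligands Tgfb1, Tgfb2, Tgfb3, Inhba and Inhbb, the receptors Tgfbr1, Tgfbr2 and Tgfbr3, the activin-binding protein follistatin (Fst) and the inhibitory SMAD Smad7. They were taken by gene symbol from a list of 10 names, and all 10 were found among the 24454 genes of the files. Total RNA from the mouse mammary carcinoma line 4T1 had been sequenced in 8 libraries. All cells had been infected with a lentivirus that carries a short hairpin RNA and selected with puromycin, the control cells included. In 3 libraries (shCTRL) this was a control hairpin, in 2 (shMEK5, titled shMEK5-2) it targeted Map2k5, the gene of MEK5, and in 3 (shERK5, titled shERK5-1) Mapk7, the gene of ERK5. Each target was thus represented by 1 hairpin, so that effects of a hairpin and of its target cannot be told apart. The labels do not say whether replicates were separate cultures, so the p-values below rest on library-to-library spread that could be technical.

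TGF-beta and activin ligands are secreted dimers that bind a type II receptor, which then phosphorylates a type I receptor. For TGF-beta these are the products of Tgfbr2 and Tgfbr1, and the proteoglycan betaglycan, encoded by Tgfbr3, presents ligand to them, TGF-beta 2 in particular. The activated type I receptor phosphorylates SMAD2 and SMAD3, which enter the nucleus with SMAD4. Follistatin traps activin outside the cell, and SMAD7 blocks the type I receptor from inside and is itself a target of the pathway. In mammary carcinoma cells the pathway is known both for growth arrest and for driving the epithelial-mesenchymal transition, the process named in the title of the series.

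The starts of Inhba and Tgfb2, the tested ligand genes that rose in shMEK5 by over 1 on the log2(CPM + 1) scale, are shown beside that of Tgfb1, which fell, so that their composition can be compared. Each sequence is the 250 bases before a RefSeq transcript start on the gene's own strand (RefSeq, GRCm38.p6), with matches to the motifs named below in capitals. The Inhba window is chr13:16011601-16011850 on the plus strand, the Tgfb2 window chr1:186705990-186706239 on the minus strand and the Tgfb1 window chr7:25686752-25687001 on the plus strand. Each window ends 1 base before the gene's start in GENCODE vM21 and shares 0 bases with its exons there, while the RefSeq spans of Inhba and Tgfb2 begin further upstream.
Inhba: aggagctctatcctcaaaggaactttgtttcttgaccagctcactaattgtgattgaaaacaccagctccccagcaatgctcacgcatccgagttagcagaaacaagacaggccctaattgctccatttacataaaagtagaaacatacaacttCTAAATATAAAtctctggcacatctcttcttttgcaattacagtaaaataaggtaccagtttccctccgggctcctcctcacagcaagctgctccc
Tgfb2: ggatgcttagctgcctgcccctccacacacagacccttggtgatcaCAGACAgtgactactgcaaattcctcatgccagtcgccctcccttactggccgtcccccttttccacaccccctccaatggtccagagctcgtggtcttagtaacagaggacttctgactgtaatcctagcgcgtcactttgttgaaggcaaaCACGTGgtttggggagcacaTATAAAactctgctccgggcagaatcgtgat
Tgfb1: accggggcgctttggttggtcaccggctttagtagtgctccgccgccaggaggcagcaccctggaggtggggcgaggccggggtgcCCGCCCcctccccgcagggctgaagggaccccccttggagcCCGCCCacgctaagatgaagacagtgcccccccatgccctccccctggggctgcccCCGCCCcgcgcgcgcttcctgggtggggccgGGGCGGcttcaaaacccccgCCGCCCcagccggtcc

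The windows differed in composition. G and C made up 43.2% of the Inhba window, 53.6% of the Tgfb2 window and 75.2% of the Tgfb1 window, against a median of 52.4% over 32851 such windows. In the window of Inhbb, which was also higher in shMEK5, they made up 68.0%, with 1 match to GGGCGG. In capitals in Inhba are TATAAA, 91 to 86 bases before the start, and a match to the MEF2 consensus, 96 to 87 bases before it, which overlap. MEF2 factors are known substrates of ERK5. In shERK5 against shCTRL the log2 fold change of Inhba was 0.01 (limma adjusted p = 0.897), and a role of this match was not tested. In Tgfb2 the capitals mark TATAAA 31 to 26 bases before the start, the E-box CACGTG 51 to 46 bases before it, and CAGACA, a SMAD-type element, 204 to 199 bases before it. In Tgfb1 they mark 5 places with the GC box GGGCGG on either strand. Searched on both strands, TATAAA was in 12.4% of all windows, the MEF2 consensus in 2.92%, CACGTG in 6.02%, CAGACA in 17.1% and GGGCGG in 32.7%. The AP-1 motif TGANTCA (6.75% of windows), the TEAD motif GGAATG (12.6%) and the CRE TGACGTCA (1.55%) had no match in the windows of these genes. These are matches of letters; binding was not measured.

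Depth ranged from 41397315 to 53714288 reads assigned to genes per library, so that 1 read was worth 0.0186 to 0.0242 CPM (counts per 1e6 reads assigned to genes). A count of 0 allows up to 3 reads, 0.0559 to 0.0725 CPM. Each hairpin lowered its target: Map2k5 was at 39.2% of its shCTRL mean in shMEK5 and Mapk7 at 24.4% in shERK5. Mapk7 also fell in shMEK5, from 26.8 ± 1.60 CPM (SD, n = 3) to 19.5 ± 1.19 (n = 2; log2 fold change -0.44, SE 0.08, limma adjusted p = 0.000923). All 6 mammary epithelial carcinoma markers reached 1 CPM in some library, Krt14 only in shMEK5, with summed levels of 1724 to 1913 CPM in shCTRL, 1285 to 1343 CPM in shMEK5 and 1502 to 1552 CPM in shERK5. Krt8 and Krt18 made up most of these sums and fell in both knockdowns, while Cdh1 (3.00-fold), Epcam (2.16-fold) and Krt7 (1.69-fold) rose in shERK5. In shMEK5 Cdh1 also rose, 1.49-fold (limma adjusted p = 7.25e-05), and Krt14 rose from 0.343 to 1.79 CPM on average. Epcam and Krt7 did not pass the test there (limma adjusted p = 0.401 and 0.59). Of 7 fibroblast markers only Pdgfra reached 1 CPM. Their sums were 31.4 to 46.8 CPM in shCTRL, 33.9 to 35.6 in shMEK5 and 22.6 to 28.0 in shERK5. Lum, Dcn and Thy1 were at 0 in every library. Of 5 leukocyte markers only Cd68 reached 1 CPM, with sums between 1.96 and 3.73 CPM over all libraries, and of 4 endothelial markers none did. In bulk RNA, fewer cells of a type and less RNA per cell cannot be told apart.

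Differences were tested by limma on log2(CPM + 1) over 11623 genes, and a gene was called where the adjusted p was below 0.05. The log2 fold changes given here are on that scale, which understates changes of genes with low values. Of the 10 members, 9 passed the filter of 1 CPM in at least 2 libraries, and Inhbb did not. In shMEK5 against shCTRL, 5 of the 9 were higher and 3 lower, where 23.1% of all tested genes were higher and 25.6% lower. In shERK5 against shCTRL, 4 were higher and 3 lower, beside 32.0% and 31.3% of all tested genes. Between the knockdowns, 1 was higher in shERK5 and 4 were lower, beside 22.0% and 17.4%. Fst passed the filter only through the knockdown libraries, so its call is not independent of the filter. Since 48.7% of all tested genes were called in shMEK5, 63.3% in shERK5 and 39.4% between the knockdowns, the size of a change is given beside each call. The median absolute log2 fold change over all tested genes was 0.20 in shMEK5, 0.25 in shERK5 and 0.17 between the knockdowns. Both knockdowns were compared with the same 3 shCTRL libraries. The members were chosen with earlier results of these data known, so their counts are descriptions.

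**Figure D1:**
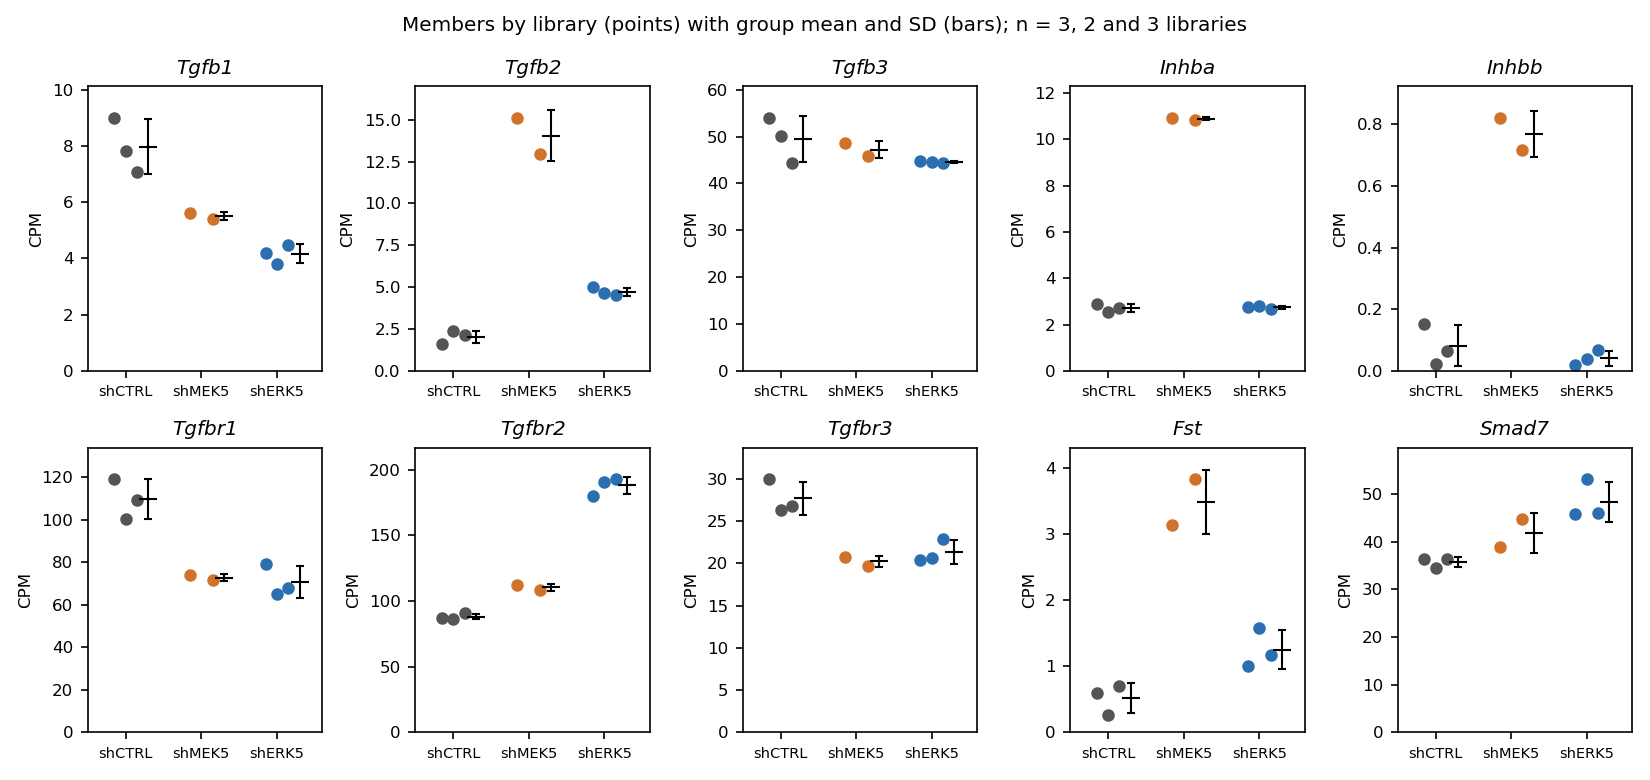
CPM of the 10 genes (y axis, from 0) in each library, by hairpin (x axis); points are libraries and the bars beside them the group mean and SD (n = 3 for shCTRL, 2 for shMEK5, 3 for shERK5). Tgfb2, Inhba, Inhbb and Fst stood highest in shMEK5, Tgfbr2 highest in shERK5, and Tgfb1, Tgfbr1 and Tgfbr3 highest in shCTRL.

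Among the tested ligands, Tgfb2 showed the greatest change in shMEK5. Tgfb2 (Entrez Gene 21808; chromosome 1, 186622787 to 186709697, minus strand, GRCm38) encodes TGF-beta 2, the isoform that depends most on betaglycan. It was at 1.63, 2.36 and 2.12 CPM in shCTRL, at 15.1 and 13.0 CPM in shMEK5 and at 4.99, 4.66 and 4.54 CPM in shERK5. The 3 groups did not overlap, and shERK5 lay between the others. Its mean in shMEK5, 14.0 ± 1.53 CPM (SD, n = 2), was 6.88 times that of shCTRL (2.04 ± 0.372, n = 3), a log2 fold change of 2.31 (SE 0.11, limma adjusted p = 3.77e-07), the 15th largest absolute change of all tested genes. In shERK5 it rose 2.32-fold to 4.73 ± 0.231 CPM (SD, n = 3), a log2 fold change of 0.92 (SE 0.10, limma adjusted p = 2.8e-05). Between the knockdowns Tgfb2 was lower in shERK5 by a log2 fold change of -1.39 (SE 0.11, limma adjusted p = 1.07e-05).

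Inhba (Entrez Gene 16323; chromosome 13, 16004256 to 16031609, plus strand), which encodes the beta A subunit of activin A, rose in shMEK5 only. It was at 2.90, 2.53 and 2.74 CPM in shCTRL, at 10.9 CPM in both shMEK5 libraries and at 2.77, 2.80 and 2.68 CPM in shERK5. The shERK5 values lay inside the range of shCTRL, and both shMEK5 values stood far above all others. The shMEK5 mean was 4.01 times that of shCTRL, with a log2 fold change of 1.68 (SE 0.08, limma adjusted p = 3.63e-07), the 58th largest. In shERK5 against shCTRL the log2 fold change came to 0.01 (SE 0.07, limma adjusted p = 0.897). The difference itself was tested between the knockdowns: Inhba was lower in shERK5 by -1.67 on the log2 scale (SE 0.08, limma adjusted p = 4.27e-07), the 39th largest change of that comparison.

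Inhbb (Entrez Gene 16324; chromosome 1, 119415463 to 119422248, minus strand), the beta B subunit of activin B, was close to the limit of detection. It had 8, 1 and 3 reads in shCTRL, 34 and 34 reads in shMEK5 and 1, 2 and 3 reads in shERK5. That is 0.154, 0.0234 and 0.0657 CPM, then 0.821 and 0.715 CPM, then 0.0186, 0.0376 and 0.0675 CPM. As with Inhba, the shMEK5 libraries were the high ones and the other groups overlapped. The ratio of its mean in shMEK5 to that in shCTRL was 9.49, above that of Tgfb2, but it rests on 12 reads in all of shCTRL. It was not among the tested genes. With no filter on low values, its log2 fold change came to 0.71 (SE 0.05, limma adjusted p = 6.11e-05) in shMEK5, -0.05 (SE 0.05, limma adjusted p = 0.424) in shERK5 and -0.76 (SE 0.05, limma adjusted p = 6.28e-05) between the knockdowns.

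Tgfb1 (Entrez Gene 21803; chromosome 7, 25687002 to 25705077, plus strand), which encodes the isoform most studied in carcinoma, went the other way. It was at 9.01, 7.84 and 7.09 CPM in shCTRL, at 5.60 and 5.41 CPM in shMEK5 and at 4.21, 3.81 and 4.48 CPM in shERK5. The groups did not overlap, with shCTRL highest and shERK5 lowest. Tgfb1 fell to 69.0% of its shCTRL mean in shMEK5 (log2 fold change -0.46, SE 0.10, limma adjusted p = 0.0042) and to 52.2% in shERK5 (-0.79, SE 0.09, limma adjusted p = 3.8e-05). The further step between the knockdowns, a log2 fold change of -0.33 (SE 0.10, limma adjusted p = 0.0255), was lost without shMEK5 replicate 1 (-0.31, limma adjusted p = 0.129), shMEK5 replicate 2 (-0.36, 0.0796) or shERK5 replicate 2 (-0.28, 0.0761), and with the replicate number as a block (-0.32, 0.0505).

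Tgfb3 (Entrez Gene 21809; chromosome 12, 86056743 to 86079041, minus strand), the gene of TGF-beta 3, did not pass the test in any comparison. It was at 54.0, 50.1 and 44.3 CPM in shCTRL, at 48.5 and 45.9 CPM in shMEK5 and at 44.8, 44.7 and 44.3 CPM in shERK5. Its shCTRL libraries spread over the whole range of the others. By limma the log2 fold change came to -0.06 (SE 0.08, adjusted p = 0.529) in shMEK5 and -0.14 (SE 0.07, limma adjusted p = 0.0924) in shERK5. Without shCTRL replicate 3, its lowest control library, the latter became -0.22 (limma adjusted p = 0.0116).

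Levels of different genes were compared after division by the length of all their annotated exons (GENCODE vM21), in CPM per kb. On this scale Tgfb3 was the most abundant TGF-beta ligand transcript in every group, at 14.6 ± 1.45 CPM per kb in shCTRL (SD, n = 3), 14.0 ± 0.550 in shMEK5 (n = 2) and 13.2 ± 0.0763 in shERK5 (n = 3). In shCTRL, Tgfb1 followed at 1.58 ± 0.192 CPM per kb, then Inhba at 0.426 ± 0.0294 and Tgfb2 at 0.352 ± 0.0642, and the libraries of these last 2 overlapped. In shMEK5 the order after Tgfb3 was Tgfb2 (2.42 ± 0.264 CPM per kb), Inhba (1.71 ± 0.00975) and Tgfb1 (1.09 ± 0.0278), so that Tgfb1 stood below both. In shERK5, Tgfb1 (0.826 ± 0.0661 CPM per kb) and Tgfb2 (0.817 ± 0.0400) overlapped, and Inhba followed at 0.430 ± 0.0101. The order of different genes depends on the exon lengths used, which need not be those of the transcripts made in these cells. These were 5042 bases for Tgfb1, 5791 for Tgfb2, 3383 for Tgfb3 and 6390 for Inhba.

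Within the 3 TGF-beta ligands, the share of Tgfb2 in the summed CPM per kb was 1.56%, 2.43% and 2.47% in the shCTRL libraries. It was 14.5% and 13.3% in the shMEK5 libraries and 5.77%, 5.45% and 5.31% in the shERK5 libraries. The share of Tgfb1 was 9.55% ± 0.328 in shCTRL (SD, n = 3), 6.25% ± 0.142 in shMEK5 (n = 2) and 5.57% ± 0.444 in shERK5 (n = 3). Tgfb3 held 88.3%, 79.9% and 88.9% on average. The sum of the 3 ligands, 16.6 ± 1.60, 17.5 ± 0.841 and 14.8 ± 0.101 CPM per kb, was within 1 SD of the shCTRL mean in shMEK5 and just beyond it in shERK5. Tgfb3 thus made up most of the pool in every library. The shares and sums depend on the same exon lengths. They were formed after the values had been seen and were not tested.

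**Figure D2:**
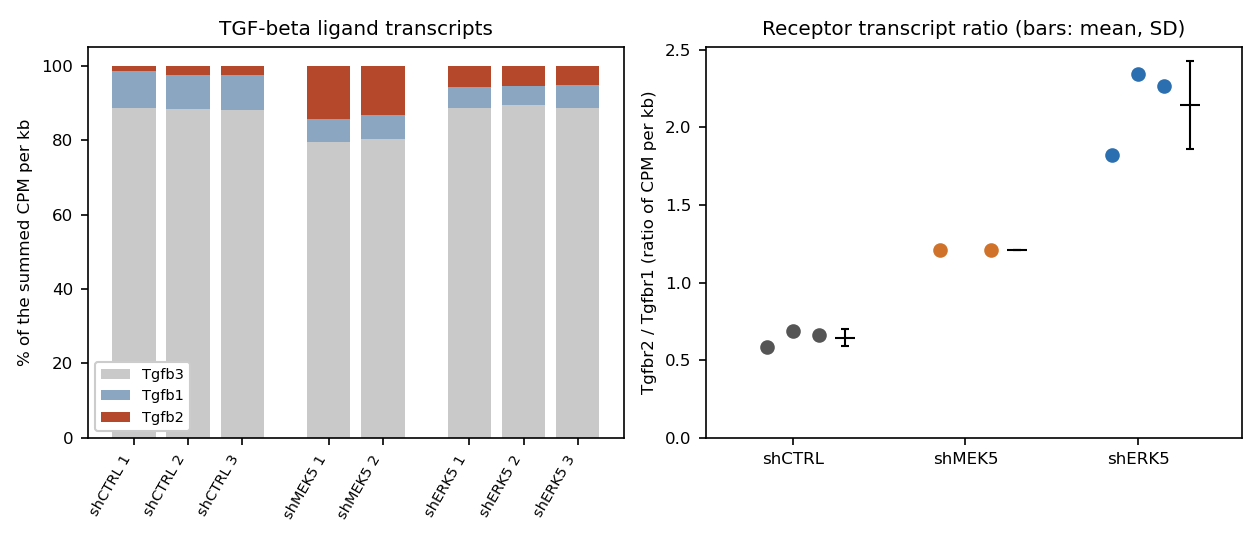
Left, share of Tgfb3, Tgfb1 and Tgfb2 in their summed CPM per kb of exon (%, y axis) in each library (x axis). Right, ratio of Tgfbr2 to Tgfbr1 in CPM per kb by library (points) with group mean and SD; the Tgfb2 share was 13.3% or more in shMEK5, and the ratio was 0.688 or less in shCTRL and 1.82 or more in shERK5.

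The receptor transcripts moved in opposite directions. Tgfbr2 (Entrez Gene 21813; chromosome 9, 116087695 to 116175363, minus strand), the type II receptor that binds TGF-beta first, was at 87.4, 86.5 and 90.7 CPM in shCTRL, at 112 and 109 CPM in shMEK5 and at 180, 191 and 193 CPM in shERK5. The groups did not overlap and all shERK5 libraries were highest. Tgfbr2 rose 2.13-fold in shERK5 (188 ± 6.75 CPM, SD, n = 3), a log2 fold change of 1.08 (SE 0.05, limma adjusted p = 1.14e-07), the 327th largest. Changes of at least 1 in absolute log2 fold change were seen in 3.6% of all tested genes in that comparison. In shMEK5 it rose 1.25-fold, by 0.32 (SE 0.05, limma adjusted p = 0.000558), and it was higher in shERK5 than in shMEK5 by 0.76 (SE 0.05, limma adjusted p = 2.89e-06). The order of the knockdowns was thus the reverse of that of Tgfb2.

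Tgfbr1 (Entrez Gene 21812; chromosome 4, 47353222 to 47414926, plus strand), the type I receptor kinase ALK5, fell in both knockdowns. It was at 119, 100 and 109 CPM in shCTRL, at 73.9 and 71.5 CPM in shMEK5 and at 79.0, 65.0 and 67.9 CPM in shERK5. Every knockdown library lay below every shCTRL library, and the knockdowns overlapped. By limma the log2 fold change came to -0.58 (SE 0.09, adjusted p = 0.000495) in shMEK5, -0.63 (SE 0.08, limma adjusted p = 8.3e-05) in shERK5 and -0.05 (SE 0.09, limma adjusted p = 0.717) between them.

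Tgfbr3 (Entrez Gene 21814; chromosome 5, 107106567 to 107289629, minus strand), betaglycan, followed the pattern of Tgfbr1. It was at 29.9, 26.2 and 26.8 CPM in shCTRL, at 20.7 and 19.7 CPM in shMEK5 and at 20.4, 20.6 and 22.9 CPM in shERK5. Both knockdowns were below shCTRL and overlapped each other. By limma its log2 fold change came to -0.43 (SE 0.08, adjusted p = 0.00128) in shMEK5, -0.36 (SE 0.07, limma adjusted p = 0.00122) in shERK5 and 0.07 (SE 0.08, limma adjusted p = 0.511) between them.

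Per kb of exon, Tgfbr1 stood above Tgfbr2 in every shCTRL library and below it in every knockdown library. The ratio of Tgfbr2 to Tgfbr1 was 0.586, 0.688 and 0.662 in shCTRL, 1.21 and 1.21 in shMEK5 and 1.82, 2.35 and 2.27 in shERK5. The 3 groups did not overlap in this ratio, which was formed after the values of both genes had been seen and was not tested. The side of 1 on which it falls depends on the exon lengths used (6534 bases for Tgfbr1 and 8187 for Tgfbr2), while the order of the libraries does not. Tgfbr3 was lower than both in all groups, at 4.22 ± 0.305 CPM per kb in shCTRL (SD, n = 3).

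The inhibitors rose in both knockdowns, by very different amounts. Fst (Entrez Gene 14313; chromosome 13, 114452262 to 114458989, minus strand), follistatin, was at 0.596, 0.257 and 0.701 CPM in shCTRL (31, 11 and 32 reads), at 3.14 and 3.83 CPM in shMEK5 (130 and 182 reads) and at 1.01, 1.58 and 1.17 CPM in shERK5 (54, 84 and 52 reads). The groups did not overlap and stood in the order of Tgfb2. The ratio to shCTRL was 6.73 in shMEK5, with a log2 fold change of 1.57 (SE 0.15, limma adjusted p = 2.12e-05), and 2.42 in shERK5 (0.57, SE 0.14, limma adjusted p = 0.00388). Between the knockdowns the mean CPM of Fst was 2.79 times as high in shMEK5 as in shERK5. On the log2(CPM + 1) scale the log2 fold change was -0.998 in shERK5 against shMEK5 (SE 0.15, limma adjusted p = 0.000528). In shMEK5 the transcripts of Inhba and of its antagonist thus rose, while in shERK5 Fst passed the test and Inhba did not.

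Smad7 (Entrez Gene 17131; chromosome 18, 75367365 to 75395935, plus strand), the intracellular feedback inhibitor, was at 36.4, 34.5 and 36.4 CPM in shCTRL, at 38.9 and 44.8 CPM in shMEK5 and at 45.8, 53.1 and 46.0 CPM in shERK5. The groups did not overlap, with shCTRL lowest. Smad7 rose in shERK5 by 0.42 (SE 0.07, limma adjusted p = 0.000551). The rise of 0.22 in shMEK5 (SE 0.08, limma adjusted p = 0.0459) was lost without any 1 shCTRL library (limma adjusted p between 0.0651 and 0.117), without shMEK5 replicate 2 (0.12, limma adjusted p = 0.365), without shERK5 replicate 3 (0.22, 0.0579), without the filter (0.22, 0.0825) and with the replicate number as a block (0.21, 0.066). Between the knockdowns Smad7 did not pass the test (0.20, SE 0.08, limma adjusted p = 0.0726); without shMEK5 replicate 2 (0.30, limma adjusted p = 0.0399) or shERK5 replicate 1 (0.24, 0.0463) it did.

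**Figure D3:**
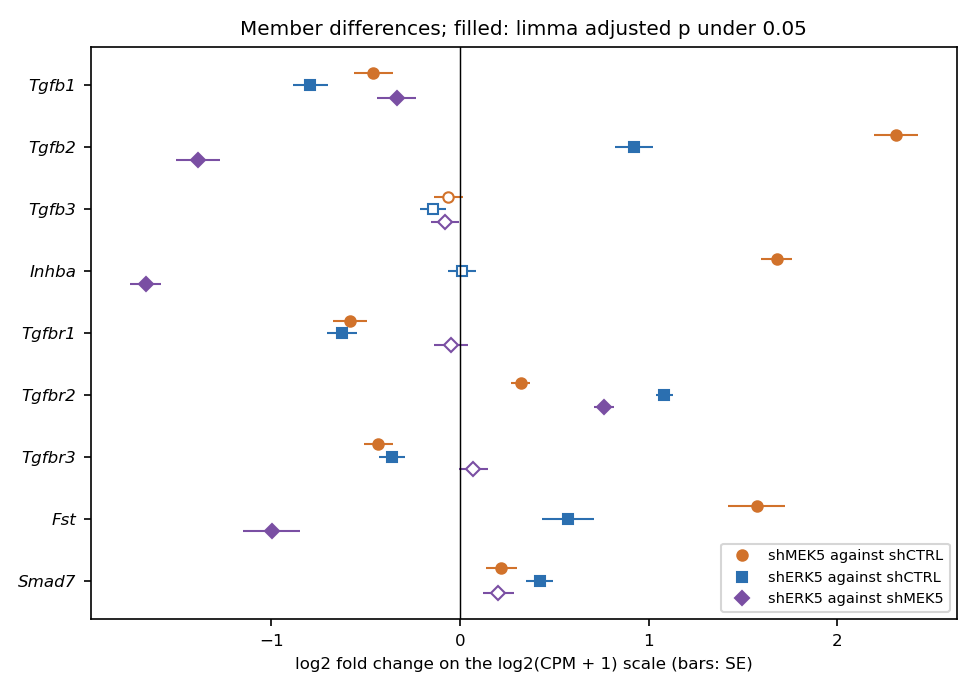
Log2 fold change (x axis, log2(CPM + 1) scale, bars are SE) of the 9 tested genes in the 3 comparisons; filled symbols have a limma adjusted p under 0.05. Tgfb2, Inhba and Fst had the greatest rises in shMEK5 (2.31, 1.68 and 1.57) and Tgfbr2 the greatest in shERK5 (1.08).

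The rest of the pathway was described with 80 further genes in 7 lists, of which 51 were tested. The lists were chosen with earlier results of these data known, so their counts and medians are descriptions. In shMEK5, 23 of the 51 were higher and 10 lower, with a median log2 fold change of 0.16 against -0.02 over all tested genes, of which 23.1% were higher and 25.6% lower. In shERK5, 18 were higher and 17 lower, about the shares over all tested genes (32.0% and 31.3%), with a median of 0.00 for the list and for all genes. Between the knockdowns, 5 were higher in shERK5 and 20 lower, beside 22.0% and 17.4% of all tested genes, with a median of -0.15 against 0.02. Postn, counted among the 23 and the 20, passed the filter through the shMEK5 libraries alone. Up to 3 called genes with the smallest adjusted p are named for each list.

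Other ligands of this branch were nearly silent. Of 10 (among them Nodal, Mstn and Inha, the inhibin alpha subunit), 5 had 0 reads in all libraries and 4 more stayed at or below 0.463 CPM. Gdf11, an activin-like ligand, was the exception, at 5.73 ± 0.499 CPM in shCTRL (SD, n = 3), 8.98 ± 0.288 in shMEK5 (n = 2) and 8.02 ± 0.609 in shERK5 (n = 3). It rose by 0.57 (SE 0.09, limma adjusted p = 0.000578) and 0.42 (SE 0.08, limma adjusted p = 0.00116).

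Of 9 other receptors and co-receptors, 5 were tested. In shMEK5 0 of them rose and 2 fell, where 23.1% of all tested genes were higher and 25.6% lower. In shERK5 1 rose and 2 fell, beside 32.0% and 31.3% of all tested genes. Vasn, vasorin, was among the 2 that fell in each knockdown, but it is a membrane protein that binds and inhibits TGF-beta, not a receptor. Vasn fell from 11.1 ± 0.217 CPM in shCTRL (SD, n = 3) to 8.55 ± 0.310 in shMEK5 (n = 2) and 6.12 ± 0.424 in shERK5 (n = 3). The log2 fold changes were -0.34 (SE 0.08) and -0.76 (SE 0.07). In shMEK5 the fall of Vasn was lost without shMEK5 replicate 2 (-0.30, limma adjusted p = 0.0503). Acvr2b, an activin type II receptor, fell in shERK5 by -0.68 (SE 0.07, limma adjusted p = 2.01e-05). Its smaller fall in shMEK5 (-0.22, limma adjusted p = 0.0411) was lost under 9 of the 19 alternatives, among them tests of the reads by edgeR (adjusted p = 0.0578) and DESeq2 (adjusted p = 0.0594). Acvr1b, the activin type I receptor ALK4, rose in shERK5 by 0.23 (SE 0.05, limma adjusted p = 0.00316).

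TGF-beta is secreted bound to its propeptide and a latent TGF-beta binding protein, and is released by integrins, thrombospondin or proteases. Of 15 genes 9 were tested; shMEK5 had 7 of them higher and 2 lower (23.1% and 25.6% of all tested genes), and shERK5 had 5 higher and 3 lower (32.0% and 31.3%). Between the knockdowns 1 was higher in shERK5 and 2 were lower (22.0% and 17.4%). Thbs1, thrombospondin-1, an activator of latent TGF-beta, went from 78.9 ± 4.29 CPM (SD, n = 3) to 185 ± 5.73 (n = 2) in shMEK5 and 172 ± 9.20 (n = 3) in shERK5, by 1.22 (SE 0.06, limma adjusted p = 4.4e-07) and 1.11 (SE 0.06, limma adjusted p = 2.07e-07). Itgb6, the beta subunit of the activating integrin, was at 1.17, 1.64 and 1.55 CPM in shCTRL, at 3.79 and 4.73 CPM in shMEK5 and at 2.25, 2.24 and 1.93 CPM in shERK5. Its log2 fold change was 1.10 in shMEK5 (SE 0.12, limma adjusted p = 4.27e-05) and -0.74 between the knockdowns (SE 0.12, limma adjusted p = 0.00071).

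The latent TGF-beta binding proteins did not move as a group. Ltbp1 rose in both knockdowns, from 673 ± 21.0 CPM (SD, n = 3) to 813 ± 30.7 in shMEK5 (n = 2; 0.27, SE 0.06, limma adjusted p = 0.00427) and 854 ± 59.9 in shERK5 (n = 3; 0.34, SE 0.06, limma adjusted p = 0.000347). Ltbp3 fell in both, by -0.36 in shMEK5 (SE 0.09, limma adjusted p = 0.00786) and -0.53 in shERK5 (SE 0.08, limma adjusted p = 0.000255). Ltbp4, named here after its values were seen, also fell in both, by -0.25 and -0.36. Without shMEK5 replicate 2 the falls in shMEK5 were lost for Ltbp3 (-0.20, limma adjusted p = 0.103) and Ltbp4 (-0.19, limma adjusted p = 0.138). Ltbp2 rose in shMEK5 (0.25, limma adjusted p = 0.0228) and fell in shERK5 (-0.24, limma adjusted p = 0.0136), a difference of -0.49 (SE 0.08, limma adjusted p = 0.000792). Its rise was lost without shCTRL replicate 1 (0.21, limma adjusted p = 0.0645) or shMEK5 replicate 1 (0.16, 0.215), and its fall without shCTRL replicate 3 (-0.21, 0.0547) or shERK5 replicate 2 (-0.18, 0.0511). The membrane protease gene Mmp14 rose in both, by 0.23 in shMEK5 (limma adjusted p = 0.0129; 0.19 and 0.105 without shMEK5 replicate 1) and 0.42 in shERK5 (SE 0.06, limma adjusted p = 0.000126); its difference between the knockdowns (0.19, limma adjusted p = 0.0435) was lost under 11 of the 19 alternatives, both scaling alternatives among them.

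Of 6 extracellular and membrane inhibitors, 2 were tested. Fstl3, a follistatin-like protein that also binds activin, was at 15.9, 18.0 and 18.9 CPM in shCTRL, at 41.8 and 40.5 CPM in shMEK5 and at 42.9, 42.8 and 47.4 CPM in shERK5. It rose by 1.18 (SE 0.08, limma adjusted p = 2.23e-06) and 1.29 (SE 0.07, limma adjusted p = 2.96e-07), so that, unlike Fst, its knockdown groups lay close together. Tmeff1, a membrane protein with follistatin domains, rose in shMEK5 (0.37, SE 0.06, limma adjusted p = 0.00061) and fell in shERK5 (-0.24, SE 0.05, limma adjusted p = 0.0024), and was lower in shERK5 than in shMEK5 by -0.61 (SE 0.06, limma adjusted p = 3.08e-05).

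The SMADs and their partners had 5 tested genes of 6. By limma 0 of them passed in shMEK5, where 48.7% of all tested genes were called. In shERK5 3 fell and 0 rose, beside 31.3% lower and 32.0% higher of all tested genes. Smad3, the main transducer to TGF-beta target promoters, was at 291, 258 and 262 CPM in shCTRL, at 281 and 282 CPM in shMEK5 and at 198, 219 and 208 CPM in shERK5. Its shERK5 libraries were below all others, with a log2 fold change of -0.37 (SE 0.06, limma adjusted p = 0.000238) against shCTRL and -0.43 (SE 0.06, limma adjusted p = 0.00042) against shMEK5. Smad4, the common partner, fell in shERK5 by -0.21 (SE 0.05, limma adjusted p = 0.00558), and Trim33, a SMAD4 regulator, by -0.52 (SE 0.12, limma adjusted p = 0.00468). The difference of Smad4 between the knockdowns (-0.18, limma adjusted p = 0.0302) was lost without either shMEK5 library or shERK5 replicate 1.

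Of 14 genes listed as intracellular negative regulators, all tested, each knockdown had 4 higher and 4 lower. This was near the shares over all tested genes (23.1% and 25.6% in shMEK5, 32.0% and 31.3% in shERK5). The deubiquitinase genes Usp4, Usp11 and Usp15 in this list are not inhibitors of the pathway. Usp11 was among the 4 lower in each knockdown, and Usp4 among those in shMEK5. Pmepa1, a TGF-beta-induced protein that sequesters SMAD2 and SMAD3, went from 24.7 ± 2.42 CPM (SD, n = 3) to 57.9 ± 3.52 in shMEK5 (n = 2) and 35.0 ± 1.00 in shERK5 (n = 3). By limma its log2 fold change came to 1.20 (SE 0.08, adjusted p = 2.32e-06) and 0.49 (SE 0.07, limma adjusted p = 0.000206). Skil, the SMAD co-repressor SnoN, fell in shERK5 by -0.58 (SE 0.06, limma adjusted p = 1.32e-05) and was lower there than in shMEK5 by -0.74 (SE 0.06, limma adjusted p = 1.6e-05). Tgif2, a further SMAD co-repressor, rose in shMEK5 (0.46, SE 0.06), where the deubiquitinase gene Usp11 fell (-0.51, SE 0.05). Usp11 fell less in shERK5 (-0.20, SE 0.05), and the difference between the knockdowns passed the test (0.32, limma adjusted p = 0.00117). Nedd4l, a ubiquitin ligase for SMADs, rose in shERK5 (0.37, SE 0.06).

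Of 20 genes known to be induced by TGF-beta through SMAD3, 15 were tested. Like the other lists, this one was chosen with earlier results of these data known. In shMEK5, 9 rose and 2 fell, where 23.1% of all tested genes were higher and 25.6% lower, and the median log2 fold change was 0.47. In shERK5, 6 rose and 4 fell, near the shares over all tested genes (32.0% and 31.3%), and the median was 0.00. Between the knockdowns 1 was higher in shERK5 and 8 were lower, beside 22.0% and 17.4% of all tested genes, with a median of -0.29. Postn is counted among the 9 and the 8, but it passed the filter through the shMEK5 libraries alone. Its calls are thus not independent of the filter. Several of the 20 genes also answer to other pathways, Ccn2 to YAP and TAZ among them.

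Ccn2, connective tissue growth factor, was at 9.38, 10.6 and 9.33 CPM in shCTRL, at 42.0 and 42.6 CPM in shMEK5 and at 8.90, 8.51 and 8.52 CPM in shERK5. The shMEK5 libraries stood far above the others, and the shERK5 libraries lay just below shCTRL, a difference that did not pass the test (-0.16, limma adjusted p = 0.0626) except with TMM scaling (-0.17, 0.0489). Its difference between the knockdowns was -2.17 (SE 0.07, limma adjusted p = 6.04e-08). Jag1, a Notch ligand, rose in shMEK5 from 31.5 ± 1.52 CPM (SD, n = 3) to 102 ± 2.63 (n = 2), by 1.67 (SE 0.06, limma adjusted p = 4.43e-08), and less in shERK5, to 40.2 ± 0.775 CPM (n = 3; 0.34, SE 0.05, limma adjusted p = 0.000219). Postn, periostin, rose in shMEK5 from 0.398 ± 0.0413 to 2.45 ± 0.286 CPM, having passed the filter through the shMEK5 libraries alone. Tnc, the matrix protein tenascin-C, was at 12.3, 11.9 and 13.2 CPM in shCTRL, at 16.1 and 19.3 CPM in shMEK5 and at 3.84, 4.38 and 4.57 CPM in shERK5. It rose in shMEK5 (0.47, SE 0.10, limma adjusted p = 0.0028) and fell in shERK5 (-1.36, SE 0.09, limma adjusted p = 7.79e-07), a difference of -1.83 between the knockdowns (SE 0.10, limma adjusted p = 7.2e-07). Il11, a cytokine gene, fell in both, by -0.28 in shMEK5 (SE 0.07, limma adjusted p = 0.00861; 0.0507 without shMEK5 replicate 1) and -0.66 in shERK5 (SE 0.07).

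**Figure D4:**
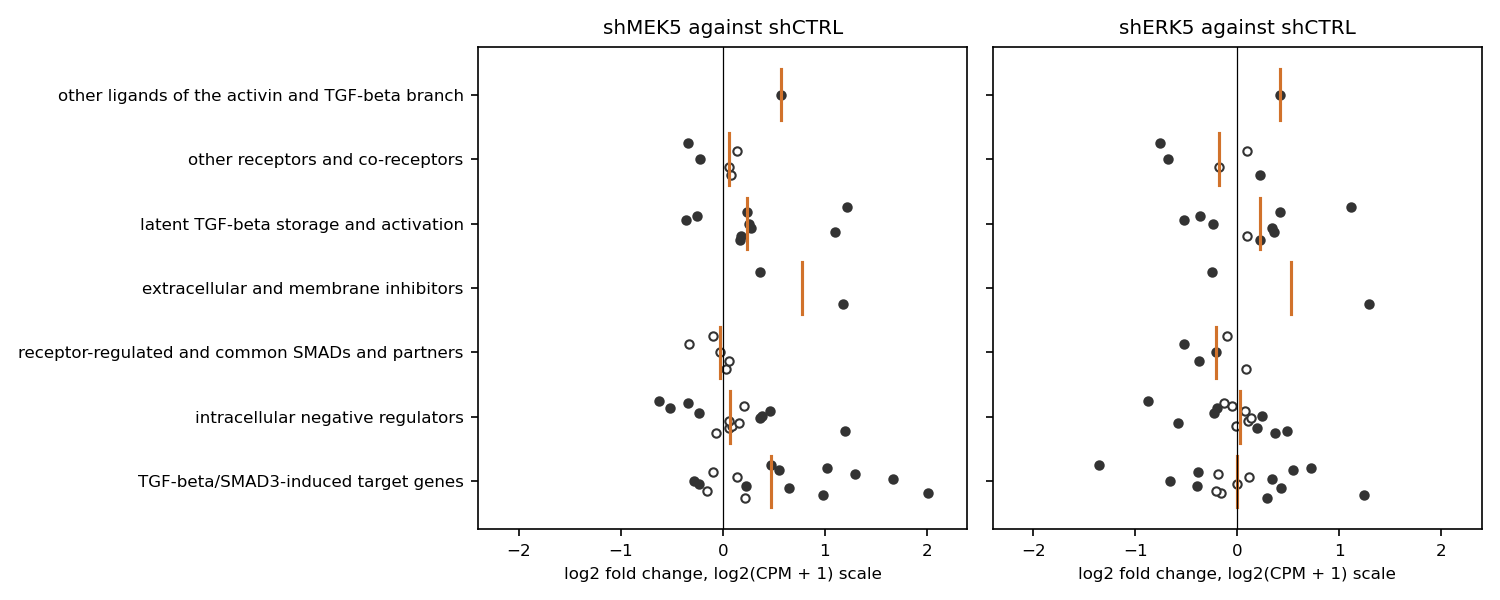
Log2 fold change (x axis, log2(CPM + 1) scale) of the tested genes of the 7 further lists (y axis) in shMEK5 and in shERK5 against shCTRL; each point is a gene, filled where the limma adjusted p was under 0.05, and the vertical bar is the list's median. The median of the induced targets was 0.47 in shMEK5 and 0.00 in shERK5.

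The genes most like Tgfb2, Inhba and Fst, the members with the greatest changes, were found by Pearson's r of log2(CPM + 1) over the 8 libraries, among 10059 tested genes with a mean of at least 5 CPM. These r are descriptions: the 8 points fall into 3 groups and share libraries, so that any gene with the same order and spacing of the group means scores high. For Tgfb2 the first was Pmepa1 (r = 0.998), followed by the interferon-induced genes Usp18 (0.997), Irf7 (0.995) and Rsad2 (0.994) and by Tceanc (0.993). For Inhba they were Fam107b (0.993), Parp9 (0.992), Ccn2 (0.991), Sorbs2 (0.990) and Rhox5 (0.988). For Fst they were Vcam1, an adhesion molecule gene (0.987), Eif2s1 (0.986), Cald1 (0.982), Rad51ap1 (0.980) and Tra2b (0.980). In Fam107b the group means went from 347 CPM in shCTRL to 440 in shMEK5 and 343 in shERK5, which shows that a high r does not mean a change of like size.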

How the data were processed

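RNA of 8 libraries of 4T1 cells (3 shCTRL, 2 shMEK5, 3 shERK5, grouped by title) was prepared with a strand-specific total RNA kit after removal of ribosomal RNA, per the labels' protocols. STAR and mm10 (GRCm38) are listed, per the submitters' processing notes. Not given in the sources used here are annotation, counting program and strand setting. Values deposited by the authors are CPM, counts per 1e6 reads assigned to 24454 genes; 100% of those above 0 were whole reads within 0.01 read, which gave the depth. Symbols came from RefSeq (GRCm38.p6) for 24374 genes by Entrez number.

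The main test was limma 3.58.1 (trend, robust) on log2(CPM + 1), with a mean per group over all 8 libraries, no covariate and Benjamini-Hochberg adjustment over the 11623 genes with at least 1 CPM in at least 2 libraries. On the recovered reads, edgeR 4.0.16 called 5660, 7390 and 4476 genes in shMEK5 and shERK5 against shCTRL and between the knockdowns, and DESeq2 1.42.0 called 5551, 7302 and 4454; limma called 5663, 7360 and 4581. The limma fit was also run on simulated counts with known changes, as a check of the code. Those counts had the same spread setting for all genes and few changed genes, unlike these data. They do not show the error rate of the calls made here. Every pair of replicates differed by more than sampling noise (chi-square per degree of freedom from 7.45 to 37.4), so none was a duplicate. Exon lengths are unions over GENCODE vM21 transcripts. Exons of Tgfb2, Tgfb3 and Fst overlap short stretches of genes on the other strand (up to 257 bases). Whether such reads were kept apart depends on the strand setting, which is not given. Exons of Tgfbr3 overlap a gene on the same strand (297 bases), and reads there cannot be told apart. Sequence windows existed for 6 of the 10 members, and 8 motifs, which were not fixed in advance, were searched.

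Members and lists were chosen with earlier results of these data known. Named were all members, up to 3 called genes per list and comparison by adjusted p, and the 5 genes most like each of the 3 members with the greatest change; 1 gene so chosen is not reported here. Alternatives were other pseudocounts (0.25 and 2), filters (none, and 5 CPM), TMM and RLE scaling, fits of 2 groups only, a replicate block, no robust step, edgeR, DESeq2 and leaving out each library.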

Additional observations from a re-analysis of the deposited data

How the results depend on the processing

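Over 19 alternatives, the 27 member results (9 genes in 3 comparisons) kept their direction and side of the threshold in 493 cases; in 11 a call was lost (Tgfb1 between the knockdowns and Smad7 in shMEK5), in 3 gained (Tgfb3 in shERK5 and Smad7 between the knockdowns), and in 3, each without 1 library, an uncalled value changed sign. Fst did not pass the filter at 5 CPM, so its 3 comparisons had no result there and are not counted. Leaving out 1 library at a time, Tgfb3 in shMEK5 ran from -0.14 to 0.00298, Inhba in shERK5 from -0.026 to 0.0467 and Tgfbr1 between the knockdowns from -0.13 to 0.011. Of 67 results of other genes, some added after their values were seen, 10 lost a call in some alternative, 1 gained one and 0 reversed. Cases without a result are not counted: Itgb6 and Postn with the filter at 5 CPM, and Postn without either shMEK5 library. The number of genes called between the knockdowns ran from 2864 to 4825, the lowest without shMEK5 replicate 1, against 4581 with all libraries. Replicate numbers are shared between groups. Same-numbered libraries of shMEK5 and shERK5 deviated together (correlations of deviations 0.465 and 0.518), but those with shCTRL did not in every pair (-0.191 to 0.169). Deviations were taken from group means, so the 2 shMEK5 libraries mirror each other and these 2 values are not independent. Differently numbered pairs ran from -0.518 to 0.400. The numbers were therefore not taken as pairs in the main test, which leaves out any spread shared between the knockdowns. With the replicate block 5763, 7462 and 4435 genes were called. No scaling moved the median of all genes by 0.1 or more on the log2 scale. Depth limits Inhbb, and a shMEK5 group of 2 libraries limits its comparisons.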
